A study of Caenorhabditis elegans with 36 samples.

Results

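Chromosome V of C. elegans carries many genes that are known only by a sequence name, that is, by the clone they were first read from and a number (F07B7.1, K10C8.2), with no three-letter symbol in the authors' gene table. The genes described here are those of the central part of that chromosome: entries on chromosome V whose start lies between 6000000 and 15000000 in the WS190 genome release and whose name in the table is a sequence name, with the first isoform taken where a gene has several. The rule used position and name only and no measured value. It found 1309 genes of 20175 in the table, which is 58.7% of the 2231 genes in that window. A current RefSeq gene table matched 1260 of them by sequence name, and 401 of those have received a symbol since. That source lists 1218 as protein-coding, 40 as pseudogenes and 2 as noncoding RNA genes. They were between 81 and 22231 bp long, with a median of 1624 bp, against 1931 bp over all genes.

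Chromatin immunoprecipitation with sequencing (ChIP-seq) had been carried out on synchronised young adults of 2 genotypes. The hrde-1 mutant carries the allele hrde-1(tm1200), and the WT is the strain N2. Each was followed as 1 lineage at 15 °C, then at 23 °C, then at 15 °C again, and was sampled at generation 3 before the shift (15C-G3), at generations 2, 4 and 6 under heat (23C-G2, 23C-G4, 23C-G6), and at generations 1 and 2 after the return (p15C-G1, p15C-G2). Each of these 12 cultures gave a library for elongating RNA polymerase II phosphorylated on serine 2 (Pol II), a library for trimethylation of histone H3 at lysine 9 (H3K9me3) and a library of input DNA. The libraries are whole-animal chromatin of biological repeat 2 alone, so more cells with a signal and more signal per cell cannot be told apart. Because the animals were grown at different temperatures for different times before collection, heat and time of collection cannot be told apart either.

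HRDE-1 is a nuclear Argonaute protein of the germline. Guided by small interfering RNAs, it silences its target genes during transcription, and loss of the protein is known to lower H3K9me3 and to raise transcription at a subset of targets, many of them in or near transposable elements. On C. elegans autosomes H3K9me3 is known to be denser on the outer arms, which are rich in repeats, than in the central part, where conserved and widely expressed genes are more frequent. Chromosome V also holds large, fast-evolving gene families, and most of its genes without a symbol have no studied function.

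Values are the authors' RPKM, reads per kilobase of gene, scaled to the size of the library. Sequence of about 500 bp on each side appears to be counted with each gene, so close neighbours share reads, and the reads carry no strand. Depth, estimated from the steps of the values, lay between 3.07 and 5.66 M (mega) reads in Pol II libraries, between 2.07 and 7.97 M reads in H3K9me3 libraries and between 0.221 and 1.31 M reads in input libraries, which gave the median gene of the set 30.0 to 62.3, 39.9 to 125 and 4.00 to 27.0 reads. Input is therefore a coarse background. For 1112 of the 1309 genes (84.95%, against 74.7% of all genes) the values correspond to whole reads, within 0.02 reads, in most libraries. For the other 197 they do not, as happens where reads are divided among copies, and which copy the signal belongs to is then uncertain. At the hrde-1 gene itself (III:4172307-4176132) Pol II was 94.2 ± 19.4 RPKM in the hrde-1 mutant and 140 ± 28.2 RPKM in WT (SD, n = 6 generations each), a weak check of the labels, since the part altered by tm1200 was not examined. The summed Pol II signal of 9 germline genes was 468 to 817 RPKM in the hrde-1 mutant and 572 to 913 RPKM in WT, that of 8 sperm genes 34.2 to 56.8 and 24.2 to 59.1 RPKM, and that of 8 yolk and intestine genes 375 to 1105 and 573 to 1033 RPKM. None of these marker genes was called in a comparison of Pol II.

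The genes of the set carried a moderate Pol II signal and an H3K9me3 signal that lay near the typical gene and well below the arms. Their median Pol II signal was 3.59 to 5.33 RPKM in the 6 hrde-1 libraries and 2.65 to 4.29 RPKM in the 6 WT libraries. The sequence-named genes of the chromosome V arms (n = 1455) had medians of 1.83 to 4.33 and 1.54 to 2.95 RPKM, and the genes with a symbol in the same window (n = 922) had 3.24 to 4.997 and 2.43 to 4.05 RPKM. In each of the 12 libraries the set stood above the arms and close to the named genes beside it. The highest median in all of these groups came from the same library, hrde-1 at p15C-G1.

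The median H3K9me3 signal of the set was 7.16 to 7.80 RPKM in hrde-1 and 6.27 to 7.55 RPKM in WT. On the arms it was 10.3 to 10.7 RPKM in hrde-1 and 9.79 to 10.6 RPKM in WT, and for the named genes of the window it was 7.61 to 8.15 and 6.57 to 7.91 RPKM. No library of the set reached the lowest median of the arms. Input medians were 6.92 to 8.98 RPKM in hrde-1 and 5.51 to 8.93 RPKM in WT for the set, and 7.37 to 9.03 and 8.05 to 9.01 RPKM for the arms. Library by library the set lay below the arms in input as well, in 11 of 12 libraries, at 0.684 to 1.01 times the median of the arms, and in H3K9me3 in 12 of 12, at 0.641 to 0.744 times. The part of input in the H3K9me3 difference was not tested.

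**Figure D1:**
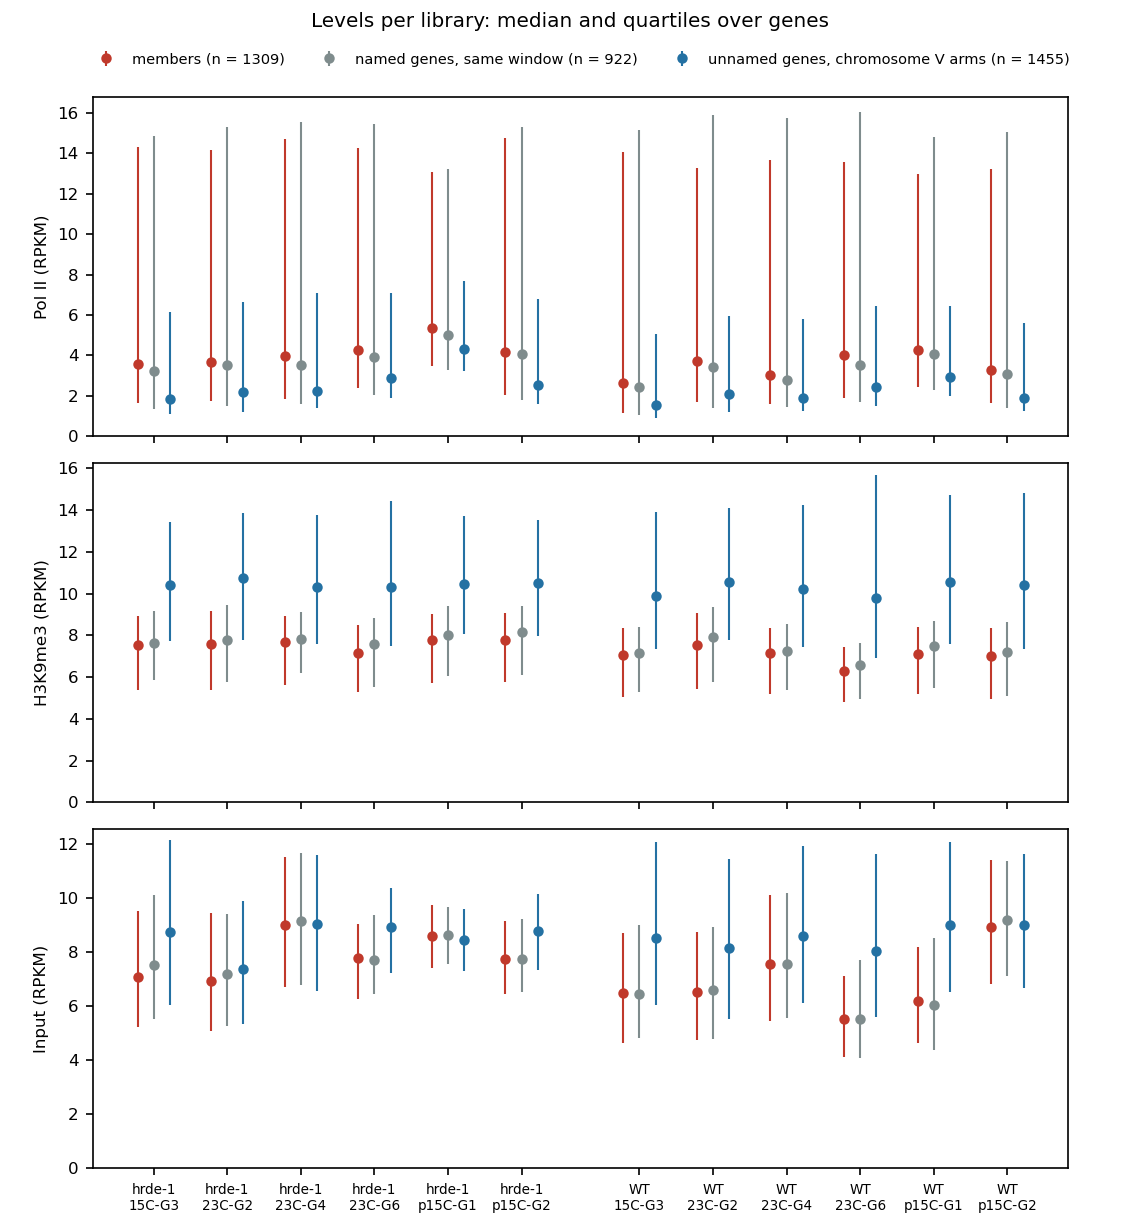
Pol II (top), H3K9me3 (middle) and input (bottom) signal in RPKM in each of the 12 cultures, hrde-1 left and WT right. Points are medians over genes and bars run from the lower to the upper quartile, for the 1309 unnamed genes of the chromosome V centre, the 922 named genes of the same window and the 1455 unnamed genes of the arms. In H3K9me3 the set stays at 6.27 to 7.80 RPKM and the arms at 9.79 to 10.7 RPKM.

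Strong H3K9me3 was rare in the set. A mean above 13.8 RPKM, the 90th percentile of all genes, was found for 19 of the 1309 genes (1.45%), against 372 of the 1455 arm genes (25.6%) and 12 of the 922 named genes of the window (1.30%). At the low end 78 genes of the set (5.96%) had under 2.43 RPKM, the 10th percentile. For Pol II the set resembled the whole table, with 128 genes (9.78%) above the 90th percentile of 27.0 RPKM and 129 (9.85%) below the 10th percentile of 1.47 RPKM. Along the window the median H3K9me3 of 1 Mb bins lay between 6.82 RPKM (10 to 11 Mb) and 7.97 RPKM (14 to 15 Mb), whereas the arm bins reached 22.9 RPKM at 17 to 18 Mb. Median Pol II of the central bins lay between 2.90 RPKM (7 to 8 Mb) and 5.39 RPKM (12 to 13 Mb). The arm bin that adjoins the window on its left, at 5 to 6 Mb, had an H3K9me3 median of 7.32 RPKM, inside the range of the central bins, so the bounds of the window are not a step in the signal on that side.

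**Figure D2:**
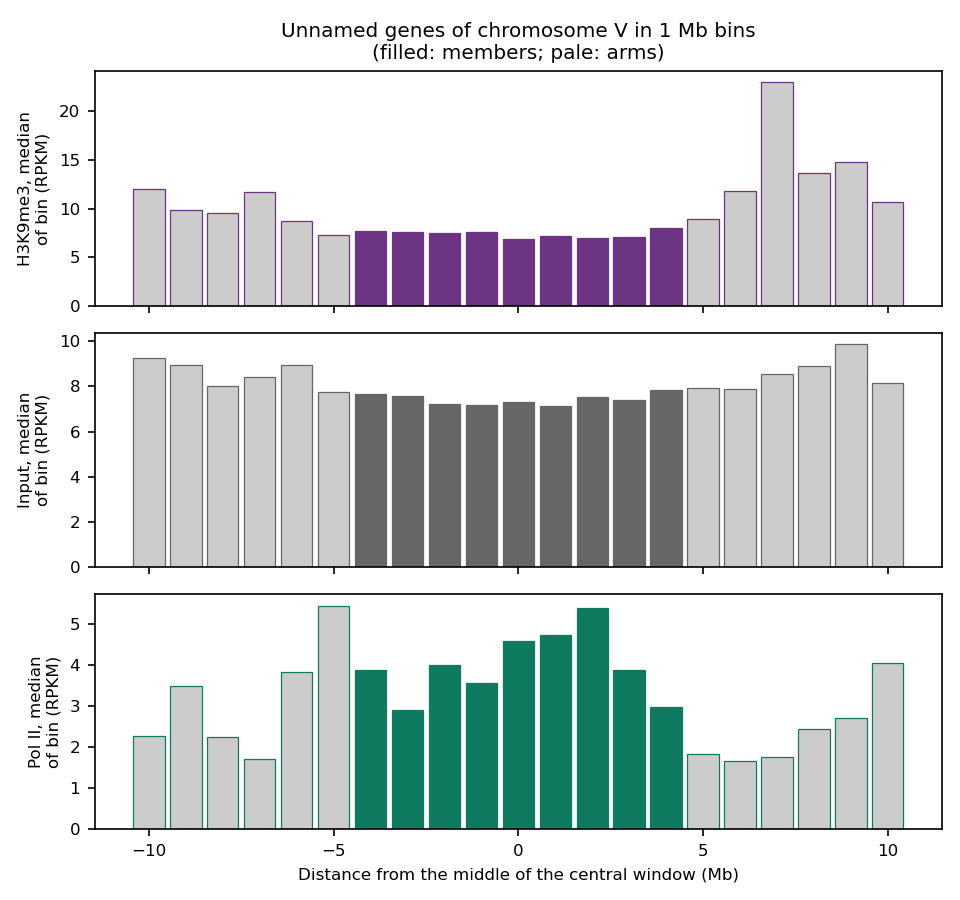
Median H3K9me3 (top), input (middle) and Pol II (bottom) in RPKM, averaged over the 12 libraries of each, for the unnamed genes of chromosome V in bins of 1 Mb, against the distance from the middle of the central window in Mb. Filled bars are the bins of the window and pale bars those of the arms. H3K9me3 stays between 6.82 and 7.97 RPKM over the window and reaches 22.9 RPKM on the right arm.

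The signals of Pol II and H3K9me3 ran in opposite directions across the set. Spearman's rho between the mean Pol II and the mean H3K9me3 signal of a gene was -0.54 over the 1309 genes, against -0.64 over all genes, -0.36 over the arm genes and -0.48 over the named genes of the window. These are descriptions across genes that share libraries and neighbouring sequence. Split by Pol II into 4 groups of nearly equal size, the set had median H3K9me3 signals of 8.04, 7.85, 7.54 and 2.90 RPKM from the lowest group to the highest, so nearly all of the difference lay in the upper group, with Pol II of 14.6 to 267 RPKM. Median input over the same groups was 6.92, 7.21, 7.50 and 8.31 RPKM, the other way round. The highest group also held the most genes that have since been given a symbol, 152 of 327, against 75 of 328 in the lowest.

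Of the 5 genes with the strongest Pol II signal 2 now have a symbol, 2 keep a sequence name and 1 was not matched to a current gene. tos-1 (K07B1.6, V:9342768-9344191), named as a target of splicing factors, had 226 to 279 RPKM of Pol II in hrde-1 and 253 to 308 RPKM in WT (lowest to highest of 6 generations), beside 3.07 ± 0.34 and 2.78 ± 0.75 RPKM of H3K9me3. eef-1G (F17C11.9, V:10965737-10967766), the gamma subunit of translation elongation factor 1, had 85.7 to 156 RPKM of Pol II in hrde-1 and 92.7 to 188 RPKM in WT. The short gene C47E8.11 (V:14688615-14688898, 284 bp) had 126 ± 31.5 and 129 ± 28.3 RPKM, and F31F7.1 (V:6276881-6278003) had 112 ± 22.4 and 117 ± 23.4 RPKM in hrde-1 and WT. In none of these genes did the genotypes separate. K07B1.8 (V:9339048-9340907), next to tos-1 on the map and not matched to a current gene, had 100.0 ± 42.3 and 105 ± 56.7 RPKM, with its highest value at 23C-G2 in both genotypes (184 and 216 RPKM). Its input was also high, 29.5 RPKM on average over the 12 libraries, and its values do not correspond to whole reads.

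The genes richest in H3K9me3 lay within 8.70 to 8.88 Mb. ZC178.1 (V:8701409-8703037) had 66.5 ± 6.17 RPKM in hrde-1 and 76.1 ± 10.6 RPKM in WT, and its input was also high, 37.8 ± 13.8 and 60.2 ± 22.3 RPKM. Its neighbour ZC178.2 (V:8705414-8709857) had 29.5 ± 2.29 and 32.9 ± 3.42 RPKM of H3K9me3 over 11.4 ± 6.36 and 9.66 ± 3.93 RPKM of input, with Pol II of 3.17 ± 1.35 and 2.12 ± 0.71 RPKM (SD, n = 6 each). The genotypes overlapped in both genes. The remaining genes of this rank, F07B7.7, ZC411.1 and the pseudogene EGAP798.1, belong to the cluster described next among the genotype differences.

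Genes that have received a symbol since differed in level from those that have not. The 401 with a symbol had a median Pol II signal of 6.28 RPKM and 7.21 RPKM of H3K9me3, the 859 that keep a sequence name 3.48 and 7.46 RPKM, and the 40 pseudogenes 1.80 and 8.12 RPKM. Among families with 6 or more genes in the set, the 7 hpo genes, named for hypersensitivity to pore-forming toxin, had the highest median Pol II, 18.6 RPKM, and a median H3K9me3 of 2.77 RPKM. The 9 frpr genes (FMRFamide peptide receptor family) had 3.77 and 8.47 RPKM, the 9 dmsr genes (related to myosuppressin receptors of Drosophila) 2.40 and 8.03 RPKM, the 12 cest genes (carboxylesterase domain) 3.12 and 8.12 RPKM, and the 6 oac genes (O-acyltransferase homologues) 1.54 and 8.28 RPKM. These families of receptors and enzymes thus sat above the median H3K9me3 of the set, 7.39 RPKM, and the hpo genes below it. Of the remaining families of this size spig lay below it too, at 7.21 RPKM. The nssp, gtnt and idpc genes lay above it, at 7.53, 8.70 and 10.9 RPKM, with a high median input of 19.8 RPKM for idpc. Of all the genes in these families only frpr-15 was called in a comparison of genotypes.

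To investigate which of these genes depend on HRDE-1 under heat, the hrde-1 and WT libraries at 23C were compared. A gene was called when its limma adjusted p was at most 0.1 and its change at least 2-fold, on log2(RPKM + 1), where the added 1 understates the change of low genes. Pol II was higher in the hrde-1 mutant at 16 of 1308 genes tested (1.22%) and lower at none, although 55 genes had an unadjusted p under 0.05. Over all genes tested the share that rose was 0.795% and the share that fell 0.0547%. H3K9me3 was lower in the mutant at 12 of 1309 genes (0.917%) and higher at none, against 0.838% and 0.00991% of all genes. On the arms 30 of 1435 genes rose in Pol II and 24 of 1455 fell in H3K9me3, and among the named genes of the window 4 of 920 rose in Pol II, 4 fell, and 3 of 922 fell in H3K9me3. The counts of the set therefore stand near the background of the table, and most genes of the set differed little between genotypes, with a median log2 change of 0.05 for Pol II (0.03 over all genes) and 0.09 for H3K9me3 (0.06 over all genes). The named genes of the window had medians of 0.03 for Pol II and 0.10 for H3K9me3.

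The called genes lay at few places. Together with the comparison at p15C, 26 genes were called between genotypes, and they formed 12 loci when genes within 10 kb were joined. Values of 13 of the 26 do not correspond to whole reads. Restricting the test to genes with whole reads left 5 rises of Pol II, among them the identical pair F07B7.7 and ZC411.1, and 4 falls of H3K9me3 at 23C, against 0.465% and 0.425% of all such genes, in 1111 and 1112 genes of the set.

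The largest group was a stretch of 60.7 kb, V:8828141-8888842, which holds 12 genes of the set and 6 histone genes. Pol II rose at 10 of the 12 and H3K9me3 fell at 5. The stretch appears to be laid out as a repeat: W09B7.2, W09B7.1, F07B7.7 and F07B7.8 on the left match F07B7.2, F07B7.1, ZC411.1 and K06C4.1 on the right, each at an offset of 42094 bp (42108 bp for the last pair). The first 3 pairs have equal lengths and identical values in all 36 libraries, and the last pair nearly so, so their reads cannot be assigned to the left or the right copy. This comparison of positions was made after the values had been seen.

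F07B7.1 (V:8872253-8873511, identical in value to W09B7.1 at V:8830159-8831417) had 130, 108 and 88.6 RPKM of Pol II in hrde-1 at generations 2, 4 and 6 of 23C, against 8.22, 4.33 and 5.33 RPKM in WT. Its H3K9me3 was 7.98, 5.87 and 6.62 RPKM in hrde-1 against 39.99, 45.6 and 40.4 RPKM in WT. In both marks the lowest library of one genotype lay several times above the highest of the other. Pol II changed by 4.00 on the log2 scale (SE 0.20, adjusted p = 4.3e-08) and H3K9me3 by -2.46 (SE 0.13, adjusted p = 8.1e-10). Input of the gene at 23C was 13.2, 12.9 and 11.9 RPKM in hrde-1 and 25.8, 21.8 and 19.7 RPKM in WT, so it moved in the direction of H3K9me3 by less (log2 change -0.77, adjusted p = 0.31), and its part in the result was not tested.

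F07B7.2 (V:8870235-8871979, identical to W09B7.2 at V:8828141-8829885) followed the same course. It had 100.2, 93.2 and 67.3 RPKM of Pol II in hrde-1 at 23C against 7.83, 5.74 and 6.07 RPKM in WT, and 5.67, 5.40 and 5.31 RPKM of H3K9me3 against 30.2, 34.9 and 36.4 RPKM. Neither mark overlapped between genotypes. The log2 changes were 3.53 (SE 0.16, adjusted p = 1.9e-08) and -2.43 (SE 0.12, adjusted p = 2.6e-10).

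F07B7.14 (V:8865327-8868811), which has no partner on the left, had 12.6, 20.1 and 15.2 RPKM of Pol II in hrde-1 against 1.84, 1.56 and 1.82 RPKM in WT. Its H3K9me3 was 12.5, 10.2 and 10.2 RPKM against 27.5, 30.1 and 26.2 RPKM. It was called in both marks, with log2 changes of 2.61 and -1.28. Its values do not correspond to whole reads, so where its signal belongs is uncertain as well.

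A further 5 genes of the stretch were called in Pol II and not in H3K9me3. F07B7.7 (V:8835587-8836686, identical to ZC411.1 at V:8877681-8878780) had 34.8, 34.1 and 27.1 RPKM of Pol II in hrde-1 against 2.69, 1.50 and 2.91 RPKM in WT, a log2 change of 3.31 (SE 0.19, adjusted p = 1.4e-07). Its H3K9me3 was 25.02, 28.5 and 26.9 RPKM against 29.4, 35.0 and 39.1 RPKM, lower in each library of the mutant but by only -0.35 on the log2 scale (adjusted p = 0.35). The pseudogene EGAP798.1 (V:8876011-8876991) had 46.2, 37.7 and 26.9 RPKM of Pol II against 3.80, 2.14 and 2.82 RPKM, and 27.9, 24.1 and 20.4 RPKM of H3K9me3 against 30.2, 35.1 and 39.2 RPKM. K06C4.1 (V:8887377-8888842) and its near copy F07B7.8 (V:8845269-8846747) both rose by 2.76 in Pol II, with H3K9me3 of K06C4.1 at 10.2, 10.3 and 10.3 RPKM in hrde-1 against 18.1, 17.3 and 16.7 RPKM in WT. That difference of -0.71 passed the adjusted p (0.00089) but not the 2-fold limit.

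The histone genes that lie among them, his-49 to his-54, did not pass the test in either mark, with log2 changes of 0.56 to 0.64 in Pol II and -0.10 to 0.16 in H3K9me3. F07B7.12 and F07B7.13, the 2 remaining genes of the set in the stretch, were not called either.

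**Figure D3:**
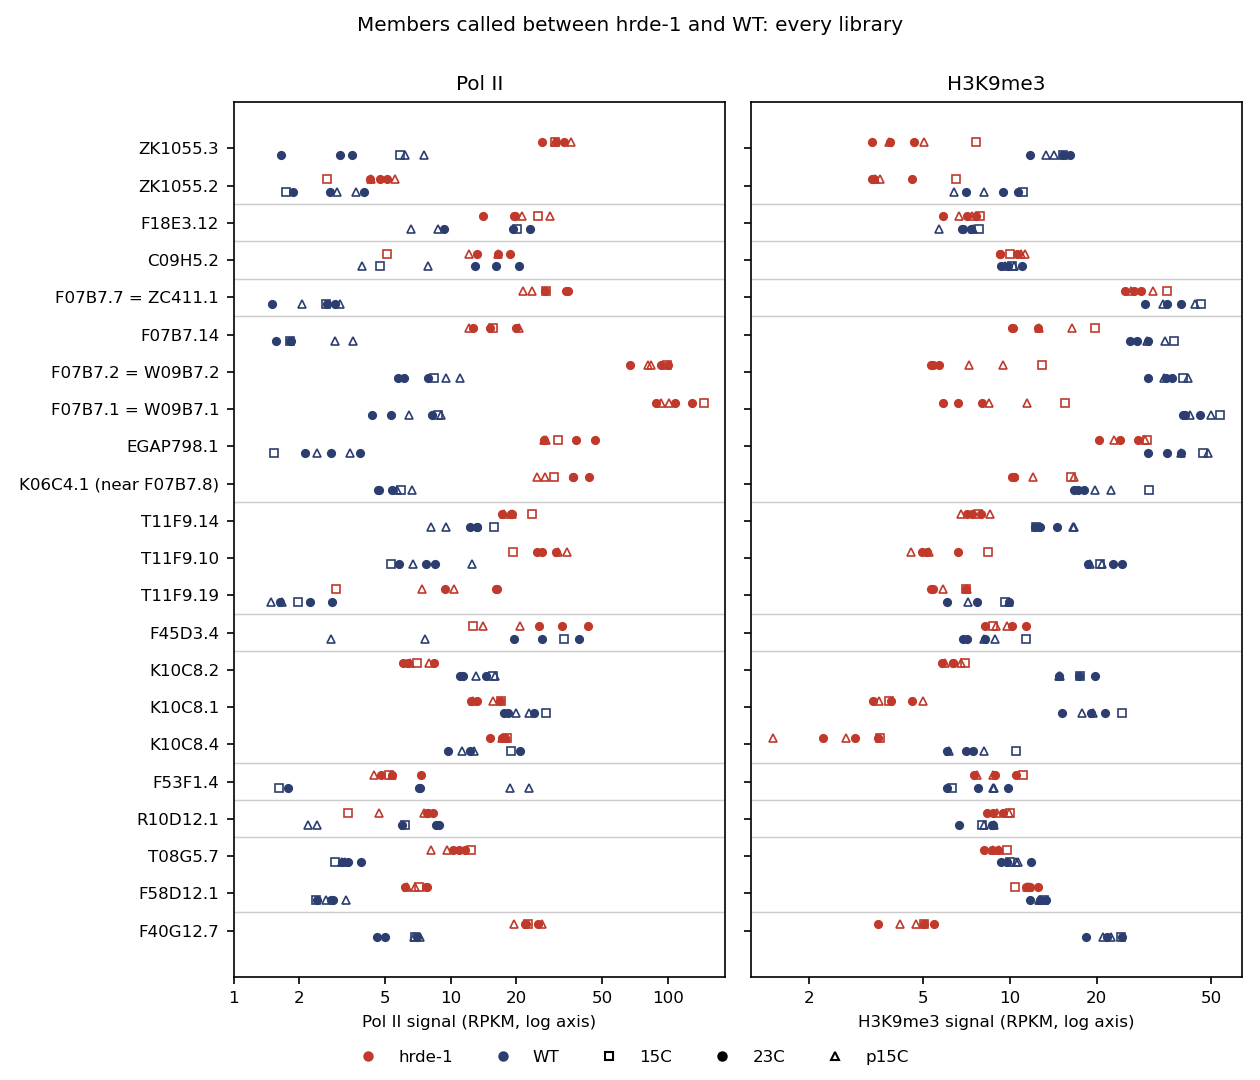
Pol II (left) and H3K9me3 (right) signal in RPKM on a log axis in every library, for the members called between hrde-1 and WT at 23C or p15C, in map order with lines between loci. Red symbols are hrde-1 and blue symbols WT, with squares for 15C, circles for 23C and triangles for p15C. Genes with identical values share a row. F07B7.1 has 88.6 to 146 RPKM of Pol II in hrde-1 and 4.33 to 8.997 RPKM in WT, while K10C8.1 differs in H3K9me3 and has Pol II of 12.4 to 17.02 RPKM in hrde-1 against 17.5 to 27.6 RPKM in WT.

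Outside this stretch 3 further genes were called in both marks at 23C. ZK1055.3 (V:6590566-6591023), not matched to a current gene, had 26.5, 33.1 and 30.7 RPKM of Pol II in hrde-1 against 3.502, 1.66 and 3.10 RPKM in WT, and 3.32, 4.63 and 3.84 RPKM of H3K9me3 against 15.3, 16.2 and 11.7 RPKM. The log2 changes were 3.08 (SE 0.19, adjusted p = 2.3e-07) and -1.64 (SE 0.13, adjusted p = 1.4e-07), from values that correspond to whole reads. Its neighbour ZK1055.2 (V:6592492-6593617) fell in H3K9me3 alone, with 4.55, 3.32 and 3.38 RPKM against 10.7, 9.49 and 7.02 RPKM.

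F40G12.7 (V:14275647-14276321) had 22.2, 22.01 and 25.1 RPKM of Pol II in hrde-1 against 6.97, 4.96 and 4.59 RPKM in WT, and 5.44, 3.48 and 5.04 RPKM of H3K9me3 against 24.6, 21.7 and 18.4 RPKM. Its changes of 1.91 and -2.01 were similar in size and opposite in sign. T11F9.10 (V:11487129-11488252) is among the nuclear RNAi-repressed heat-inducible genes that the study defined on mRNA of the same experiment, so its direction is not independent evidence. It had 24.98, 26.3 and 30.5 RPKM of Pol II in hrde-1 against 7.67, 5.81 and 8.46 RPKM in WT, and 6.59, 5.16 and 4.95 RPKM of H3K9me3 against 24.4, 22.8 and 18.7 RPKM. The values of T11F9.10, like those of F40G12.7, do not correspond to whole reads. The study lists T11F9.10 and its paralog F40D4.13 as overlapping the retrotransposon CER15. Which copy the signal belongs to is therefore uncertain. T11F9.10 lies in a locus where 3 named genes were called in both marks as well. They are dhs-19 (a short-chain dehydrogenase), srh-1 (a serpentine receptor, also on the study's list) and col-157 (a collagen). The pseudogene T11F9.19 (V:11491429-11492567) beside T11F9.10 rose in Pol II, with 9.38, 16.2 and 16.3 RPKM in hrde-1 against 1.63, 2.83 and 2.24 RPKM in WT, and its H3K9me3 values overlapped between genotypes.

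At T08G5.7 (V:14044352-14044999) and F58D12.1 (V:14049628-14055114) Pol II rose with little difference in H3K9me3. The values of neither gene correspond to whole reads. T08G5.7 had 10.2, 11.6 and 10.9 RPKM of Pol II in hrde-1 against 3.16, 3.35 and 3.86 RPKM in WT (log2 change 1.42, SE 0.16, adjusted p = 0.00013), and its H3K9me3 was 9.11, 8.10 and 8.63 RPKM against 11.8, 9.79 and 9.32 RPKM (adjusted p = 0.34). F58D12.1 had 6.15, 7.74 and 7.68 RPKM of Pol II against 2.43, 2.87 and 2.80 RPKM, with 11.7, 12.5 and 11.3 RPKM of H3K9me3 against 11.7, 13.3 and 12.7 RPKM.

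The reverse was seen at K10C8, where H3K9me3 fell at 3 adjacent genes and Pol II did not rise. parn-1 (K10C8.1, V:12692520-12695233), which encodes the ribonuclease that trims the 3′ ends of piRNAs in C. elegans, had 4.56, 3.88 and 3.35 RPKM of H3K9me3 in hrde-1 against 19.05, 21.5 and 15.1 RPKM in WT (log2 change -1.98, SE 0.14, adjusted p = 1.4e-08). Its Pol II was 16.9, 12.4 and 13.3 RPKM against 24.3, 17.5 and 18.3 RPKM, lower in the mutant in every library, at an adjusted p of 0.55. frpr-15 (K10C8.2, V:12690492-12692343) had 6.32, 6.36 and 5.82 RPKM of H3K9me3 against 17.4, 19.7 and 14.8 RPKM, and 8.38, 6.06 and 6.37 RPKM of Pol II against 14.6, 11.1 and 11.4 RPKM. Its Pol II change of -0.75 had an adjusted p of 0.042 but was under 2-fold and was not called. Values of frpr-15 do not correspond to whole reads. K10C8.4 (V:12696055-12696856) had 3.49, 2.89 and 2.24 RPKM of H3K9me3 against 7.44, 7.02 and 6.06 RPKM, with Pol II values that overlapped. These 3 genes lie within 6.37 kb, so part of their reads is shared.

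Set side by side, 8 genes were called in both marks at 23C, 8 in Pol II alone and 4 in H3K9me3 alone. All 16 genes that rose in Pol II had lower H3K9me3 in the mutant, with a median log2 change of -0.99, and 10 of the 12 that fell in H3K9me3 had higher Pol II, with a median of 2.26. Counting identical copies once, these are 13 and 10 genes. Over all genes 154 of 160 that rose in Pol II (96.3%) had lower H3K9me3 and 146 of 168 that fell in H3K9me3 (86.9%) had higher Pol II, so the shares in the set are near those of the table. Of the same 160 genes 66 (41.3%) were also called lower in H3K9me3, and on the arms 12 of 30. Both marks were measured on chromatin of the same cultures.

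**Figure D4:**
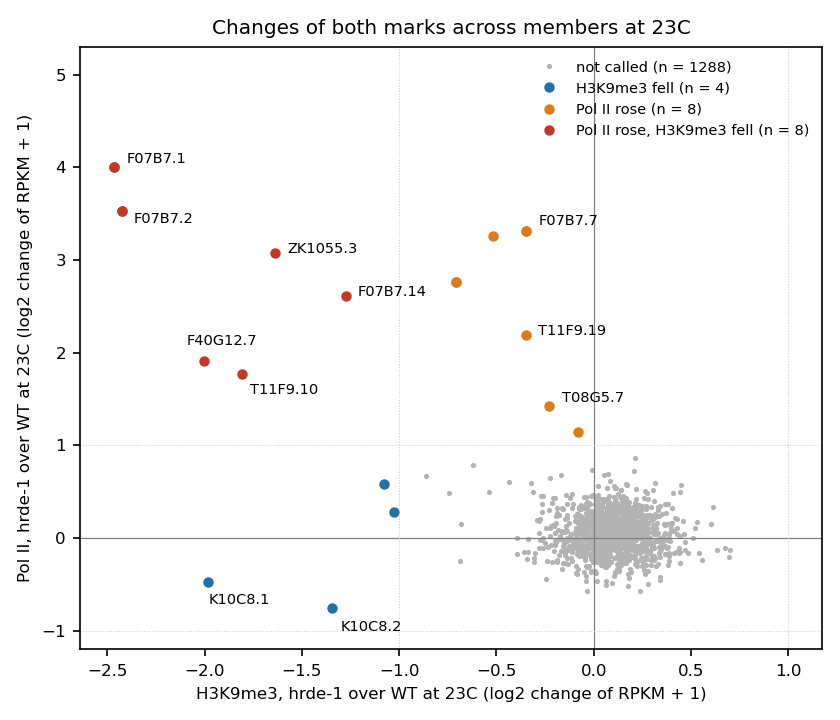
Log2 change of RPKM + 1 between hrde-1 and WT at 23C for H3K9me3 (horizontal) and Pol II (vertical), 1 point per gene of the set. Red points were called in both marks (8 genes), orange points in Pol II alone (8), blue points in H3K9me3 alone (4) and grey points in neither (1288). The grey cloud sits near the origin, F07B7.1 is at -2.46 and 4.00, and K10C8.1 (parn-1) and K10C8.2 (frpr-15) lie below the line of no Pol II change.

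To ask whether the differences were still present after the return to 15 °C, the genotypes were compared at p15C. Pol II was higher in hrde-1 at 19 of 1308 genes (1.45%) and lower at 1 (0.0765%), against 0.825% and 0.124% of all genes. H3K9me3 was lower at 12 of 1309 genes, against 0.902% of all genes, and higher at none, against 0.00991%. Of the genes that rose at 23C 15 also rose at p15C (93.8% of the 16, 78.9% of the 19), and of those that fell in H3K9me3 11 did so in both (91.7% of either list). With identical copies counted once, the lists hold 13 rises at 23C and 16 at p15C, and 10 falls in each. The matching shares over all genes were not computed, so whether this overlap is particular to the set is not known. With quantile normalization the Pol II counts at p15C were 19 higher and 9 lower, and with the libraries centred on their medians 16 and 5, beside 165 and 66, and 115 and 53, over all genes, so the number of falls depends on the scaling. With the generation as a block, a pairing described with the interactions, 25 rose and 4 fell, against 1.2% and 0.248% of all genes, and these include the 20 called without it. Among genes with whole reads 8 rose and 1 fell in Pol II, against 0.485% and 0.113% of such genes, and 3 fell in H3K9me3, against 0.431%. The summed Pol II signal of the yolk and intestine genes was 470 to 613 RPKM in hrde-1 and 878 to 969 RPKM in WT at p15C, and that of the germline genes 468 to 685 and 679 to 838 RPKM, and their part in these differences was not tested.

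At the stretch around F07B7 the 10 genes that had risen at 23C were called again, with log2 changes of 1.93 to 3.51 at p15C against 2.61 to 4.00 at 23C, a difference that was not tested. F07B7.1 had 92.9 and 101 RPKM of Pol II in hrde-1 at p15C-G1 and p15C-G2 against 6.43 and 8.997 RPKM in WT (log2 change 3.51, SE 0.25, adjusted p = 2.5e-06), and 8.48 and 11.5 RPKM of H3K9me3 against 42.2 and 50.0 RPKM. The gene also stood apart before the heat: at 15C-G3, with 1 library per genotype and no test, it had 146 RPKM of Pol II in hrde-1 and 8.71 RPKM in WT, and 15.6 and 53.5 RPKM of H3K9me3. parn-1 had 4.98 and 3.51 RPKM of H3K9me3 at p15C against 17.8 and 19.5 RPKM, and at 15C-G3 3.80 against 24.4 RPKM. F40G12.7, with 22.7 RPKM of Pol II in hrde-1 and 6.84 RPKM in WT at 15C-G3, and ZK1055.3, with 30.3 and 5.81 RPKM, likewise had separate values in the genotypes at each temperature. At 15C-G3 T11F9.10 had 19.3 RPKM of Pol II in hrde-1 and 5.31 RPKM in WT, and 8.39 and 20.6 RPKM of H3K9me3. Pol II there was 12.4 and 2.94 RPKM at T08G5.7 and 7.12 and 2.39 RPKM at F58D12.1, but 2.97 and 1.98 RPKM at T11F9.19.

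The genes called in Pol II only at p15C had a different course. F45D3.4 (V:12552188-12553206) had 20.8 and 14.04 RPKM in hrde-1 at p15C against 7.59 and 2.80 RPKM in WT (log2 change 1.66, SE 0.37, adjusted p = 0.054), while at 23C its values of 25.6, 43.1 and 32.7 RPKM in hrde-1 overlapped those of 26.4, 39.1 and 19.6 RPKM in WT. catp-3 (C09H5.2, V:8076065-8079891), a cation-transporting ATPase gene, had 16.5 and 12.1 RPKM at p15C against 7.82 and 3.92 RPKM, and 18.7, 13.2 and 16.5 RPKM at 23C against 20.7, 12.97 and 16.2 RPKM. F18E3.12 (V:7414922-7415325) with 21.4 and 28.5 RPKM against 8.74 and 6.55 RPKM and R10D12.1 (V:13932560-13934624) with 7.55 and 4.66 RPKM against 2.42 and 2.19 RPKM completed this group. The fall was at F53F1.4 (V:13411059-13411696), with 5.38 and 4.42 RPKM in hrde-1 against 23.1 and 18.8 RPKM in WT (log2 change -1.89, SE 0.41, adjusted p = 0.051). With the generation as a block its adjusted p was 0.00093, and the falls then also included C05C8.7, T04F3.2 and T15B7.15. Without the mean-variance trend none of the 5 genes called in Pol II only at p15C was called, F53F1.4 having an adjusted p of 0.16. Of these 5 genes 1 was kept with input subtracted, 2 with median centring and 3 with a pseudocount of 4. Quantile normalization and whole reads each kept 4, and the other settings kept all 5. None of the 5 was called in H3K9me3. At p15C 62 of the 166 genes of the whole table that rose in Pol II (37.3%) were called lower in H3K9me3.

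Heat was examined within each genotype by setting the 3 generations at 23C against 15C-G3, which has 1 library per genotype, assumed to vary like the other phases. In hrde-1 Pol II rose at 1 gene of the set and fell at 1, against 0.229% of all genes called in either direction. The fall was at asp-12 (F21F8.4, V:8269233-8272024), an aspartyl protease gene, with 3.08, 3.17 and 3.13 RPKM at 23C and 18.1 RPKM at 15C-G3 (log2 change -2.21, SE 0.24, adjusted p = 0.0018). In WT the same gene had 2.55, 2.23 and 3.02 RPKM at 23C and 5.73 RPKM at 15C-G3. The rise was at T11F9.19, with 9.38, 16.2 and 16.3 RPKM at 23C and 2.97 RPKM at 15C-G3 (log2 change 1.87, SE 0.34, adjusted p = 0.063), a call that was lost with quantile normalization, with the input subtracted, without the mean-variance trend, and without any 1 of 6 libraries, namely hrde-1 at 23C-G4 or 23C-G6 and either genotype at p15C-G1 or p15C-G2. Leaving out the hrde-1 library of 23C-G2 raised the number of genes called to 11 (337 over all genes), and leaving out the WT library of 23C-G2, which enters only the estimate of the spread, raised it to 10 (229 over all genes). Without the hrde-1 library of 23C-G4 or 23C-G6, or the WT library of p15C-G1 or p15C-G2, 1 call was left. In hrde-1 the summed Pol II signal of the germline genes was 499.6 to 556 RPKM at 23C and 817 RPKM at 15C-G3, that of the yolk and intestine genes 375 to 927 and 1105 RPKM, and that of 3 cuticle genes 9.56 to 40.2 and 5.24 RPKM, and their part in these changes was not tested.

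In WT no gene of the set was called for Pol II (limma, 134 at an unadjusted p under 0.05), against 0.0149% of all genes. The smallest p was that of catp-3, with 20.7, 12.97 and 16.2 RPKM at 23C and 4.72 RPKM at 15C-G3 (log2 change 1.60, adjusted p = 0.35). The same gene in hrde-1 had 18.7, 13.2 and 16.5 RPKM at 23C and 5.07 RPKM at 15C-G3, values that overlapped those of WT at 23C.

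For H3K9me3 the genes called for heat lay in the F07B7 stretch. In hrde-1 it was lower at 23C at 4 genes (0.306%), against 0.0644% of all genes called in either direction, and these were F07B7.1, F07B7.2 and their identical copies. F07B7.1 had 7.98, 5.87 and 6.62 RPKM at 23C and 15.6 RPKM at 15C-G3 (log2 change -1.09, SE 0.19, adjusted p = 0.040), and F07B7.2 had 5.67, 5.40 and 5.31 RPKM and 12.9 RPKM (log2 change -1.11, SE 0.17, adjusted p = 0.027). Input in hrde-1 moved the same way. For F07B7.1 it was 13.2, 12.9 and 11.9 RPKM at 23C and 20.5 RPKM at 15C-G3 (log2 change -0.65). For F07B7.2 it was 11.6, 9.37 and 11.8 RPKM and 14.8 RPKM (log2 change -0.42). How much of the H3K9me3 change goes with input was not tested. The H3K9me3 calls were lost with a pseudocount of 4, with median centring, with input subtracted, and without the hrde-1 library of 23C-G6, and 2 were left without that of 23C-G4. Subtraction could not test these calls. In hrde-1 input was above H3K9me3 at 15C-G3 and at each generation of 23C in these genes. All their subtracted values were therefore set to 0, and the change was 0. With the input subtracted 5 other genes were called in hrde-1 and 6 in WT, beside 223 and 110 over all genes. In WT no gene of the set was called (limma, 90 at an unadjusted p under 0.05), against 0.0496% of all genes. The gene nearest to it was F07B7.8, with 18.2, 17.4 and 16.9 RPKM at 23C and 30.4 RPKM at 15C-G3 (log2 change -0.77, adjusted p = 0.11).

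The return to 15 °C was examined by setting the 3 generations at 23C against the 2 generations at p15C, each higher or lower value being that of 23C. In WT Pol II was higher at 23C at 5 genes of 1308 (0.382%) and lower at 5, against 0.184% of all genes in each direction. The split depends on the scaling, with 3 higher and 6 lower under quantile normalization and 7 and 8 with median centring. Over all genes these counts were 16 and 39, and 28 and 57. Without the WT library of 23C-G6 23 genes were called (161 over all genes), and without that of p15C-G1 or p15C-G2 4 or 1. Without either hrde-1 library of p15C, which enters only the spread, 5 were.

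The genes higher at 23C in WT were F45D3.4, with 26.4, 39.1 and 19.6 RPKM at 23C against 7.59 and 2.80 RPKM at p15C (log2 change 2.31, SE 0.33, adjusted p = 0.017), catp-3, R10D12.1, W07G4.5 and C34D1.4. Of these F45D3.4 had 33.2 RPKM at 15C-G3, near its level at 23C, whereas catp-3 had 4.72 RPKM, near its level at p15C. W07G4.5 (V:13047462-13049216) had 20.97, 22.5 and 15.8 RPKM at 23C against 9.37 and 6.74 RPKM at p15C.

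The genes lower at 23C in WT were asp-12, F53F1.4, F32H5.3, Y32F6A.4 and ZK1055.3. asp-12 had 2.55, 2.23 and 3.02 RPKM at 23C against 14.1 and 12.4 RPKM at p15C (log2 change -1.99, SE 0.19, adjusted p = 0.0014), and Y32F6A.4 (V:10428699-10433576) had 5.54, 4.81 and 4.52 RPKM against 12.9 and 13.3 RPKM (log2 change -1.25, SE 0.18, adjusted p = 0.017). The values of F53F1.4 were 7.22, 1.77 and 7.15 RPKM against 23.1 and 18.8 RPKM. Each of the 10 genes had WT values at 23C that did not overlap those at p15C. They were picked by a call in this same comparison, so the separation is not further evidence.

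In hrde-1 the only call was asp-12, with 3.08, 3.17 and 3.13 RPKM at 23C against 8.77 and 11.2 RPKM at p15C (log2 change -1.41, SE 0.19, adjusted p = 0.019). Over all genes 0.0248% were called in either direction. H3K9me3 gave no call in the set for the return in hrde-1 (limma, 50 at an unadjusted p under 0.05, 0.00991% of all genes called) or in WT (48, 0% of all genes). The genes with the smallest p were W09B7.2, with 5.67, 5.40 and 5.31 RPKM in hrde-1 at 23C against 7.22 and 9.45 RPKM at p15C, and T01C4.8 (V:7129127-7129541), with 5.46, 5.68 and 6.52 RPKM in WT against 9.79 and 8.36 RPKM.

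**Figure D5:**
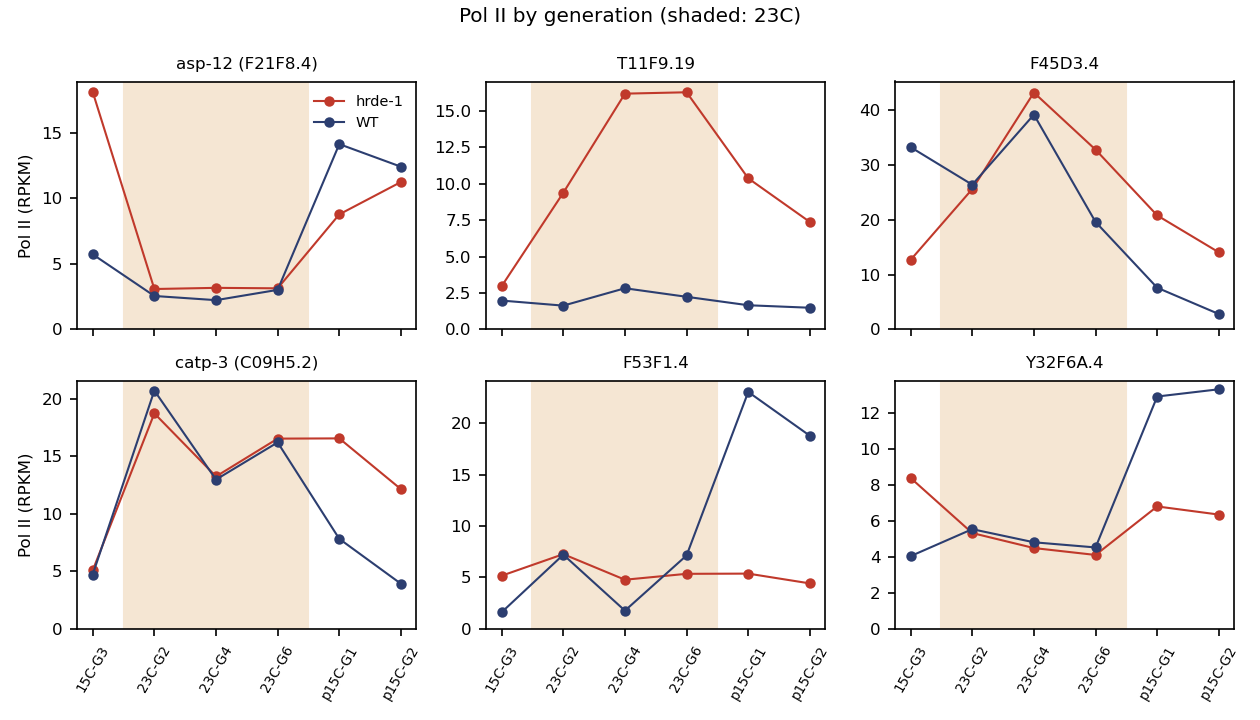
Pol II signal in RPKM for 6 genes of the set at the 6 generations sampled, in order of time, with the generations at 23C shaded. Red is hrde-1 and blue is WT, with 1 library per point and a linear axis from 0 in each panel. asp-12 has 2.23 to 3.17 RPKM in all 6 libraries at 23C. F45D3.4 and catp-3 lie higher in hrde-1 than in WT at p15C, and F53F1.4 and Y32F6A.4 lower, while T11F9.19 is highest in hrde-1 at 23C-G4 and 23C-G6. In hrde-1 T11F9.19 has 9.38 RPKM at 23C-G2, and 10.4 and 7.37 RPKM at p15C-G1 and p15C-G2.

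Whether the change with temperature itself differed between genotypes was tested as an interaction. For heat no gene of the set was called in Pol II (limma, 40 at an unadjusted p under 0.05), against 0.00497% of all genes, or in H3K9me3 (limma, 76, against 0%). The same comparison for the return, which was added after the values had been seen, called none in Pol II (53, against 0% of all genes) or H3K9me3 (42, against 0%). The smallest p values were those of asp-12 in Pol II, with a difference of -1.30 on the log2 scale, and ZC190.10 (V:8695652-8696497) in H3K9me3, with -0.96. With the shallow input subtracted, 7 genes were called for heat in Pol II and 9 in H3K9me3, against 0.591% and 1.01% of all genes.

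In Pol II the hrde-1 and WT libraries of a generation deviated from their group means together, so the fit was repeated with the generation as a block. With this pairing 10 genes of the set were called for heat, 2 with a more positive and 8 with a more negative change in hrde-1 (0.153% and 0.612%), against 0.939% and 0.477% of all genes. Of the 7 called for the return 3 had a more positive and 4 a more negative difference in hrde-1, against 0.134% and 0.149% of all genes. All of these calls depend on the pairing and on 3 residual degrees of freedom, since the adjusted p of each was 0.9998 without it, and those for heat on 1 library per genotype at 15C-G3.

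T11F9.19 was the clearest of the genes with a larger rise in hrde-1: its Pol II was 9.38, 16.2 and 16.3 RPKM at 23C against 2.97 RPKM at 15C-G3 in hrde-1, and 1.63, 2.83 and 2.24 RPKM at 23C against 1.98 RPKM at 15C-G3 in WT (difference of log2 changes 1.77, paired adjusted p = 0.015). F45D3.4 had 12.7 RPKM in hrde-1 at 15C-G3 and 33.2 RPKM in WT, with overlapping values at 23C, so its difference of 1.59 (paired adjusted p = 0.026) arose at 15C-G3. asp-12 had 18.1 RPKM in hrde-1 and 5.73 RPKM in WT at 15C-G3 and like values at 23C, a difference of -1.30 (paired adjusted p = 0.051). For the return F53F1.4 had the largest difference, 2.13 (paired adjusted p = 0.063), with 7.27, 4.78 and 5.36 RPKM at 23C and 5.38 and 4.42 RPKM at p15C in hrde-1 beside the WT values given above.

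The input libraries served as a background for the comparison at 23C. No gene of the set was called (limma, 129 at an unadjusted p under 0.05), against 0% of all genes. The median log2 change of the set in input was 0.21, against 0.06 over all genes and -0.02 on the arms. The named genes of the window had 0.22, so the slightly higher hrde-1 inputs were shared by the window and not particular to the set. The part of this shift in the small positive medians of the ChIP libraries was not tested. The smallest p was at F32G8.3 (V:10554588-10555210), with 13.96, 10.2 and 8.44 RPKM of input in hrde-1 against 1.99, 2.68 and 1.56 RPKM in WT (adjusted p = 0.16), and 0.272, 0.786 and 1.74 RPKM of Pol II against 1.49, 0.745 and 1.64 RPKM.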

How the data were processed

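ChIP-seq of WT and hrde-1 C. elegans at 6 generations gave 12 libraries each of Pol II, H3K9me3 and input. The authors aligned reads to WS190 with Bowtie 0.12.7 (the submitters' processing notes), kept perfect alignments on both strands and deposited RPKM per gene with no input subtraction. With 999 bp added to each gene the values step in whole reads, and depth was estimated from these steps. Of 20911 entries 736 further isoform entries were dropped. Coordinates are those of the table, written 1-based. Current names came from RefSeq (assembly WBcel235), whose coordinates were not used.

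Genes entered the test when they averaged 1 RPKM or more in the mark and in input. limma 3.58.1 (R 4.3.3) was run on log2(RPKM + 1), 1 fit per mark over 12 libraries with a mean for each genotype and phase (15C, 23C, p15C), a mean-variance trend and 6 residual degrees of freedom. Benjamini-Hochberg adjustment covered all genes tested in each of 8 comparisons per mark, of which 7 were planned. Within a phase the samples are later generations of the same lineage, and the p-values thus describe the spread among generations, which need not equal that among separate cultures. The fit was tested on simulated data.

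WT and hrde-1 libraries of a generation share a generation label. In Pol II their deviations from the group means correlated at r = 0.35 to 0.71 over the 5 pairs, against -0.59 to 0.32 for pairs of different generations, so the generation was also fitted as a block. Deviations cancel within a group, which by construction pushes r for different generations downward, so this contrast is partly fixed in advance. At p15C, with 2 libraries per group, both same-generation pairs had r = 0.53 and both other pairs -0.53, a single value with its sign changed.

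Genes were named by rule: the 5 with the highest mean Pol II and the 5 with the highest mean H3K9me3, up to 8 called genes per comparison by size of change, the smallest p where none was called, and listed heat-inducible genes. Genes named beyond it complete a locus or a count and were chosen after their values were seen. The members and lists were chosen with earlier results of these data known. Intervals were not computed, and depths cover counting error only. Biological repeat 1 and the mRNA and small RNA data were not used here.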

Additional observations from a re-analysis of the deposited data

Results flagged for a closer look

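With the generation as a block, the change with temperature in Pol II differed between hrde-1 and WT at 16 genes of the set, 10 of 1308 for heat and 7 for the return, beside 285 and 57 of 20124 over all genes (1.42% and 0.283%). The values are differences of log2 changes, hrde-1 minus WT, and the adjusted p is that of limma. Genes outside the naming rule were chosen after their values were seen.

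For heat (23C minus 15C-G3) the change was more negative in hrde-1 at T15B7.15 (-1.963, adjusted p = 0.057), its neighbour T15B7.14 (-1.777, adjusted p = 0.016), F10D2.8 (-1.775), F43D2.3 (-1.385), asp-12 (F21F8.4, -1.303), R02D5.3 (-1.29), nssp-53 (F27B10.1, -1.192) and F56H9.2 (-1.168). T15B7.14 had 5.71, 3.46 and 3.49 RPKM at 23C and 11.4 RPKM at 15C-G3 in hrde-1, and 5.04, 2.51 and 4.33 RPKM and 2.42 RPKM in WT. The change was more positive in hrde-1 at F45D3.4 (1.593) and T11F9.19 (1.774). Apart from T11F9.19, the values at 15C-G3 differed between genotypes by more than those at 23C-G2 in each of these genes. However, 15C-G3 is 1 library per genotype, and later generations differed as much in 2 genes. T15B7.15 had 20.9 RPKM in hrde-1 and 5.83 RPKM in WT at 15C-G3, and 12.1 and 27.3 RPKM at 23C-G6. nssp-53 had 5.49 and 3.02 RPKM at 15C-G3, and 3.31 and 5.90 RPKM at 23C-G4. In the rest, again apart from T11F9.19, 15C-G3 differed by more than each generation at 23C.

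For the return (23C minus p15C) the difference was more negative in hrde-1 at F18E3.12 (-1.462), F45D3.4 (-1.392), catp-3 (C09H5.2, -1.232) and W07G4.5 (-1.174), and more positive at F32H5.3 (1.304), C05C8.7 (1.474) and F53F1.4 (2.129). Paired adjusted p lay between 0.033 and 0.082 for these 7 genes. C05C8.7 had 3.52, 6.01 and 7.19 RPKM at 23C and 6.05 and 4.86 RPKM at p15C in hrde-1, and 3.34, 3.86 and 11.9 RPKM and 15.7 and 18.7 RPKM in WT.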

How the results depend on the processing

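No log2 change of a named gene changed sign under the settings that were run. Of 152 counts under other settings 126 stayed within 1.5 times, as did 166 of 184 with a library left out. Comparisons with no call in the main fit are included, and those that again gave no call add to these totals. Of 483 log2 changes of named genes 444 kept their call, and of 624 with a library left out 587. The 6 levels recomputed with other isoform entries or from 7 to 14 Mb moved by less than the spread between libraries.

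With only genes of whole reads, which leaves fewer genes, the counts were 5 and 9 for Pol II between genotypes at 23C and p15C, 4 and 3 for H3K9me3, and 0 for heat on H3K9me3 in hrde-1. With input subtracted Pol II gave 13 between genotypes at p15C, 7 and 4 for heat in hrde-1 and WT, 0 and 2 for the return, and 7 and 1 for the interactions of heat and return, and H3K9me3 gave 6 for heat in WT, 2 and 1 for the return in hrde-1 and WT, and 9 and 1 for the interactions. Heat on Pol II in hrde-1 gave 1 with quantile normalization and 1 without the trend. The return in WT gave 2 without the trend and 4 with a pseudocount of 4, which gave 0 for the return in hrde-1 and for heat on H3K9me3 in hrde-1. Median centring also gave 0 for heat on H3K9me3 in hrde-1. Over all genes, whole reads gave 75 and 90 for Pol II between genotypes at 23C and p15C, and 64 and 66 for H3K9me3. Input subtraction gave 75 for Pol II between genotypes at p15C. For the return in hrde-1 and WT it gave 14 and 11 in Pol II, and 35 and 9 in H3K9me3. The return of Pol II in WT gave 7 without the trend and 33 with a pseudocount of 4. Median centring moved the median log2 change of all genes in Pol II to -0.08 at 23C and -0.07 at p15C, against 0.03 and 0.12. The cause of these shifts was not tested.

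The replicate block by generation gave 10 and 7 for the interactions of heat and return in Pol II, and 4 falls in place of 1 at p15C. The other totals it gave stayed within 1.5 times. The interaction of heat in Pol II had 2 more positive and 8 more negative differences with the block, and 5 and 2 with input subtracted. In H3K9me3 same-generation pairs correlated at 0.052 to 0.21.

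With a library left out the Pol II counts were 16 to 17 and 16 to 24 between genotypes at 23C and p15C, 1 to 11 and 0 to 1 for heat in hrde-1 and WT, 0 to 1 and 1 to 23 for the return, and 0 to 0 and 0 to 1 for the interactions. For H3K9me3 they were 10 to 12 and 10 to 13 between genotypes, 0 to 4 for heat in hrde-1 and 0 in the others. The 15C libraries, 1 per genotype, could not be left out of the comparisons that use them. Input depth, 4.00 to 27.0 reads in the median gene, limits what its subtraction can show.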
